A study of Mus musculus with 20 samples.

Results

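The genes described here are 35 markers of immune cells in mouse kidney: 21 genes of macrophages and other myeloid cells, 4 genes of MHC class II antigen presentation and 10 genes of lymphocytes. They were taken by gene symbol from a table of 24762 genes in 20 kidney libraries. Of the 35, 34 were found by symbol, and Adgre1 was found under its older symbol Emr1. The libraries came from males of the C57BL/6J strain, either wild type or ARLmon/Y. All of them had been orchidectomised, so every group, controls included, lacked testes, and each genotype then received either vehicle or testosterone over 4 days. ARLmon is a mutation of the X-linked androgen receptor that disturbs the pairing of receptor molecules through their ligand-binding domains. The 4 groups, 5 libraries each, are called wild type vehicle, wild type testosterone, ARLmon vehicle and ARLmon testosterone. The labels do not say that each library is a separate animal, so p-values measure the spread between these libraries, which may in part be technical. The labels name kidney as the tissue and give no age and no sort of immune cells.

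The kidney holds a resident network of macrophages between its tubules, which depend on the receptor Csf1r and its ligands Csf1 and Il34, and which are marked by Adgre1 (F4/80), Cx3cr1 and the complement C1q genes. Macrophages, dendritic cells and B cells present peptides to helper T cells on MHC class II, a pair of an alpha and a beta chain that is held empty by the invariant chain Cd74 until it reaches the endosome. T cells are marked by the CD3 chains with Cd4 or Cd8a, B cells by Ms4a1 (CD20), Cd79a and Cd79b, and cytotoxic lymphocytes by Nkg7 and Ccl5.

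Total counts ran from 8342000 to 38101526 per library, and 18781 to 21719 genes were detected in each. Levels are given as CPM, the usual depth-scaled read count, here with TMM-adjusted library sizes. Values for single libraries follow the order of the library codes, GC078602 to GC078606 for wild type vehicle, GC078607 to GC078611 for wild type testosterone, GC078617 to GC078621 for ARLmon vehicle and GC078612 to GC078616 for ARLmon testosterone. Odc1, an androgen-responsive kidney gene for polyamine synthesis, served as a check of the treatment, with 206 ± 32.4 CPM in wild type vehicle and 1510.0 ± 119.5 in wild type testosterone (SD, n = 5 each). Its ARLmon levels were 202 ± 24.2 CPM after vehicle and 188 ± 26.8 after testosterone. GC078612 held the highest value of its group for 30 of the 34 members tested, against 28.3% of all genes tested, and GC078615 the lowest for 27, against 31.1%. Other groups had such libraries too. GC078611 of wild type testosterone was the lowest for 21 members (23.5% of all genes) and GC078605 of wild type vehicle for 18 (17.1%). GC078620 of ARLmon vehicle was the highest for 19 (25.6%). Proximal tubule genes, which mark the bulk of kidney tissue, summed to group means of 12900 to 14240 CPM. Single libraries were less even: in wild type vehicle GC078606 was at 8876 CPM and the others at 13340 to 16530. Genes of other nephron segments summed to 5017 and 3973 CPM in wild type vehicle and testosterone, and to 5525 and 5346 in those groups of ARLmon. By the test described below, 2 of 8 such genes were higher in ARLmon under vehicle and 2 under testosterone, with none lower. Of all genes, 1.99% and 15.6% were called higher in these comparisons. Of the 8 proximal tubule genes, 2, Slc22a6 and Aqp1, were lower in ARLmon under vehicle and none higher. Of all genes, 2.38% were called lower there. Under testosterone 1 of the 8 was higher in ARLmon and 1, Slc22a6, lower, where 15.6% and 15.5% of all genes were. Testosterone in wild type raised 1 of the 8, again Slc22a6, and lowered 1, where it raised 9.36% and lowered 6.36% of all genes. Slc22a6 was thus itself responsive to testosterone. GC078612 and GC078615 are ARLmon testosterone libraries, so results on that group are also given without GC078612, or without both, where that changed a call or moved a value by over 1.5 times.

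Per length of exon, the invariant chain was the most abundant member. Averaged over the 20 libraries, Cd74 stood at 135.7 CPM per kb of exon, followed by the class II beta chains H2-Eb1 at 45.9 and H2-Ab1 at 36.7 and by the alpha chain H2-Aa at 29.8. Lyz2, the lysozyme gene of macrophages and neutrophils, lay among them at 34.1 CPM per kb, and C1qa and C1qb were at 23.1 and 22.9. The macrophage surface genes were lower on this scale, with Csf1r at 11.2 CPM per kb, Adgre1 at 1.83 and Cx3cr1 at 1.25. Lymphocyte genes ran from 2.34 CPM per kb for Ccl5, which was above Adgre1 and Cx3cr1, down to 0.0749 for Ms4a1, the lowest member, whose 132 reads over all 20 libraries make it the thinnest member tested. Cd79a had 133 reads and did not pass the filter on low counts, so 34 of the 35 members were tested.

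**Figure D1:**
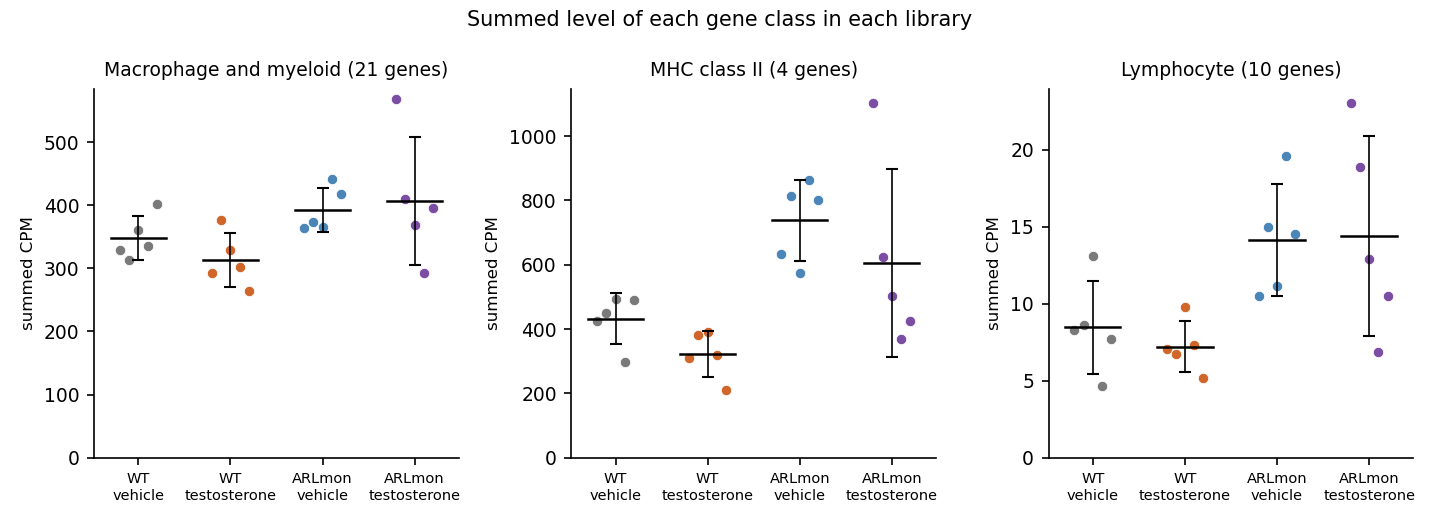
Summed CPM of the 21 macrophage and myeloid, 4 class II and 10 lymphocyte genes in each of 5 libraries per group (points), with the group mean (line) and SD (bars). The 5 ARLmon vehicle libraries lie between 575 and 864 CPM for class II, all above the wild type vehicle libraries, and 1 ARLmon testosterone library stands at 1102 CPM.

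Class II was the only one of the 3 sums whose vehicle groups did not overlap between genotypes. In the order given above, the summed class II level in wild type vehicle was 426, 451, 493, 299 and 491 CPM, and in ARLmon vehicle 633, 815, 575, 864 and 802. Under testosterone it was 309.8, 383, 392, 319 and 211 CPM in wild type and 1102, 625, 504, 370.4 and 426 in ARLmon. The ARLmon vehicle libraries were all higher, and under testosterone the lowest ARLmon library lay below the highest 2 of wild type. The summed macrophage level averaged 348 ± 35.1, 313 ± 42.5, 392 ± 34.8 and 407 ± 101 CPM (SD, n = 5) in wild type vehicle, wild type testosterone, ARLmon vehicle and ARLmon testosterone. For lymphocyte genes these means were 8.48 ± 3.01, 7.22 ± 1.68, 14.2 ± 3.64 and 14.4 ± 6.50 CPM. These sums describe the libraries and were not tested. Genes at high CPM weigh most in them. In wild type vehicle Csf1r, Cxcl16 and Lyz2 averaged 56.9, 55.25 and 40.4 CPM of the macrophage sum. Csf1r averaged 81.9 CPM in wild type testosterone, while 17 of the 21 macrophage genes had negative estimates for testosterone in wild type. Bulk kidney RNA cannot tell fewer cells of a type from less RNA of that gene in each cell.

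Each gene was tested with edgeR's quasi-likelihood test over all 15549 genes that passed the filter, and called at a Benjamini-Hochberg adjusted p below 0.05. The comparisons share groups with each other, so their values are set side by side and not correlated. Between genotypes under testosterone, 18 members were higher and 1 lower in ARLmon. That is 52.9% of the 34 higher, where 15.6% of all genes were called higher and 31.1% in either direction. Genes called lower were 15.5% of all. The members' median log2 difference was 0.66, and that of all genes 0.04. The ranges of 4 members, Ptprc, Adgre1, Aif1 and H2-Eb1, were higher in ARLmon with no overlap, 11.8% against 9.44% of all genes (13.1% were lower with no overlap, 22.5% either way). When only library size scaled the counts, all genes called in this comparison split into 5690 higher and 1213 lower (2431 and 2411 with TMM) around a median of 0.28, and 25 members were called. Without GC078612 the members called fell to 11, and without the wild type testosterone library GC078610 to 12. Without both GC078612 and GC078615 they were 15.

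Under vehicle, 3 members were higher in ARLmon and none lower, where 1.99% of all genes were called higher, 2.38% lower and 4.37% either way. Their median log2 difference was 0.33 (0.01 over all genes), and 32 of 34 lay above 0. For 5 members every ARLmon vehicle library was above every wild type vehicle library, 14.7% against 2.18% of all genes (2.39% were lower with no overlap, 4.57% either way). These 5 were the 4 class II genes and Ms4a1. This count of calls rested on single libraries: it was 0 without GC078605 or without GC078621, 1 without GC078603, GC078606, GC078618 or GC078620, and 6 without GC078612. DESeq2 called 5.

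Testosterone in wild type raised 1 member, Csf1r, and lowered none, where 9.36% of all genes rose, 6.36% fell and 15.7% were called either way. Csf1r was also the only member whose ranges did not overlap, where 8.34% of all genes were higher and 4.21% lower with no overlap, 12.6% either way. Most members had negative values: 27 of 34 were below 0 with a median of -0.33 (-0.03 over all genes), and of the 9 with an unadjusted p below 0.05, Csf1r was positive and the others negative. The count of calls was 0 without GC078606 or GC078610, 2 without GC078602, GC078605 or GC078611, 4 without GC078615 and 6 without GC078612, the other calls being falls. When only library size scaled the counts, the rise was lost and 6 members fell, while all genes called split into 897 rises and 2687 falls (1455 and 989 with TMM) around a median of -0.18. In ARLmon, testosterone changed 0 members by edgeR's adjusted p, as it did 0% of all genes. No member's ranges were apart in ARLmon, and of all genes 0.392% were higher and 0.386% lower with no overlap, 0.778% either way. At an unadjusted p below 0.05 there was 1 member, Adgre1, and 813 of all genes, and DESeq2 and limma-voom also called 0 members.

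**Figure D2:**
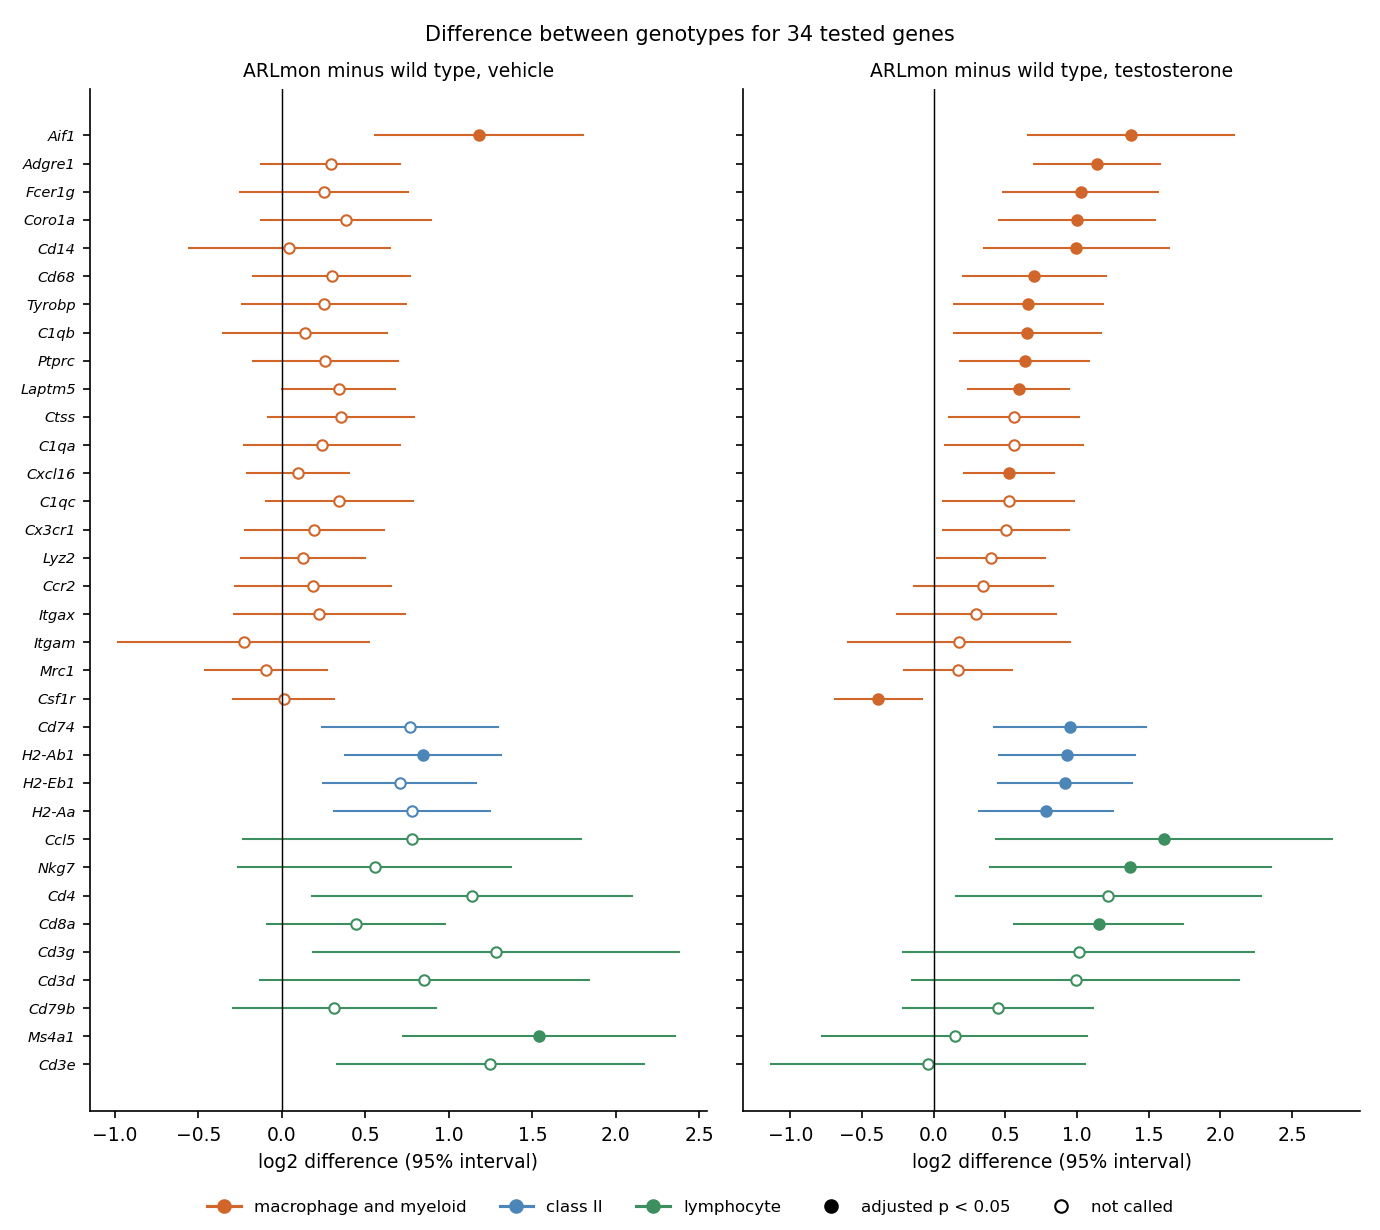
Log2 difference of ARLmon minus wild type, with its 95% interval, for the 34 members tested, under vehicle (left) and under testosterone (right), grouped as macrophage and myeloid, class II and lymphocyte genes. Filled points passed an adjusted p of 0.05: 3 under vehicle, and 19 under testosterone, of which only Csf1r lies below 0.

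The class II genes sit together in the major histocompatibility complex of chromosome 17, H2-Ab1 at 34257689-34269419 on the plus strand, H2-Aa at 34282744-34287823 on the minus strand and H2-Eb1 at 34305867-34316674 on the plus strand (GRCm38, GENCODE M21). As background, their promoters carry an X box, bound by the RFX complex, and a Y box, bound by NF-Y, on which the coactivator Ciita assembles. Promoters (250 bases before to 50 after the start, RefSeq, GRCm38.p6) were found for H2-Aa and H2-Eb1 among these genes and for H2-DMb1, which encodes a chain of the H2-M peptide exchanger. The stretches below show the pair of motifs that these 3 genes share. They are printed 5′ to 3′ on the gene's strand, with an X-box-like GNAACT and the Y-box letters TGATTGG in capitals.
H2-Aa, chr17:34287852-34287919, minus strand: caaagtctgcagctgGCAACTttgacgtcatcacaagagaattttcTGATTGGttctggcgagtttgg
H2-Eb1, chr17:34305761-34305827, plus strand: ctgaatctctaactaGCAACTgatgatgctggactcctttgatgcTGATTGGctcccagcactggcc
H2-DMb1, chr17:34153082-34153149, plus strand: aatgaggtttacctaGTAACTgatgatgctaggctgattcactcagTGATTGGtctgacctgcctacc
The motifs lie 25, 24 and 25 bases apart in that order. Both strands of all 32851 promoters of this length were searched for GNAACT followed by TGATTGG on the same strand with 10 to 40 bases between, and 0.274% held the pair. TGATTGG alone was in 7.82% and GNAACT alone in 42.8%. Of the promoters found for members, those of H2-Aa and H2-Eb1 held the pair, and none of the 15 macrophage and 6 lymphocyte genes with a promoter did. Among 9 other genes of the class II pathway with a promoter, H2-DMb1 and H2-Eb2 held it. A match describes letters only and is not evidence of binding.

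H2-Ab1, the beta chain of the class II molecule I-A, was the class II gene called in both genotype comparisons. Its levels were 80.1, 83.4, 94.3, 53.1 and 80.1 CPM in wild type vehicle, 51.8, 63.5, 67.8, 52.8 and 35.9 in wild type testosterone, 117, 151, 117, 168 and 148 in ARLmon vehicle, and 181, 107, 90.5, 63.3 and 76.1 in ARLmon testosterone. Every ARLmon vehicle library was above every wild type library of either treatment, while the ARLmon testosterone libraries spread over all 3 other groups. The log2 difference between genotypes was 0.84 ± 0.23 (SE) under vehicle (edgeR adjusted p = 0.0335) and 0.93 ± 0.23 under testosterone (0.00385). The call under vehicle did not survive the single omission of GC078605 (adjusted p = 0.115), GC078620 (0.0791), GC078621 (0.0752), GC078603 (0.069), GC078618 (0.0598), GC078602 (0.058) or GC078606 (0.054). The call under testosterone held in all 30 alternatives, with 0.63 without GC078612.

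H2-Aa, the alpha chain of I-A, had the same order of groups. It was at 97.6, 99.4, 101, 62.3 and 104 CPM in wild type vehicle, 75.3, 83.1, 89.9, 76.7 and 44.4 in wild type testosterone, 139.9, 169, 124, 188 and 175 in ARLmon vehicle, and 216, 135, 113, 81.5 and 91.0 in ARLmon testosterone. The vehicle groups did not overlap, and the testosterone groups did. Its log2 difference was 0.78 ± 0.22 under vehicle, just over the threshold (edgeR adjusted p = 0.0506), and 0.78 ± 0.23 under testosterone (0.0117). Without GC078612 the latter was 0.51 (adjusted p = 0.0539).

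H2-Eb1 encodes the beta chain of the class II molecule I-E, whose alpha chain C57BL/6 mice do not make. Its levels were 79.0, 83.1, 87.4, 52.7 and 82.0 CPM in wild type vehicle, 49.3, 62.0, 64.8, 53.1 and 39.6 in wild type testosterone, 104, 144, 100.2, 139 and 139 in ARLmon vehicle, and 179, 109.7, 83.3, 66.1 and 69.7 in ARLmon testosterone. It was the class II gene whose ranges were apart in both genotype comparisons. The log2 difference was 0.71 ± 0.22 under vehicle (edgeR adjusted p = 0.0746) and 0.92 ± 0.22 under testosterone (0.00364), or 0.61 without GC078612.

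Cd74, the invariant chain, was at 169, 185, 210.4, 131 and 225 CPM in wild type vehicle, 133, 174, 169, 137 and 91.6 in wild type testosterone, 272, 350.2, 234, 369 and 341 in ARLmon vehicle, and 526, 274, 217, 159.5 and 189 in ARLmon testosterone. GC078612 stood far above the other libraries of its group. Its log2 difference was 0.77 ± 0.25 under vehicle (edgeR adjusted p = 0.0937) and 0.95 ± 0.26 under testosterone (0.00713), which moved to 0.57 without GC078612.

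**Figure D3:**
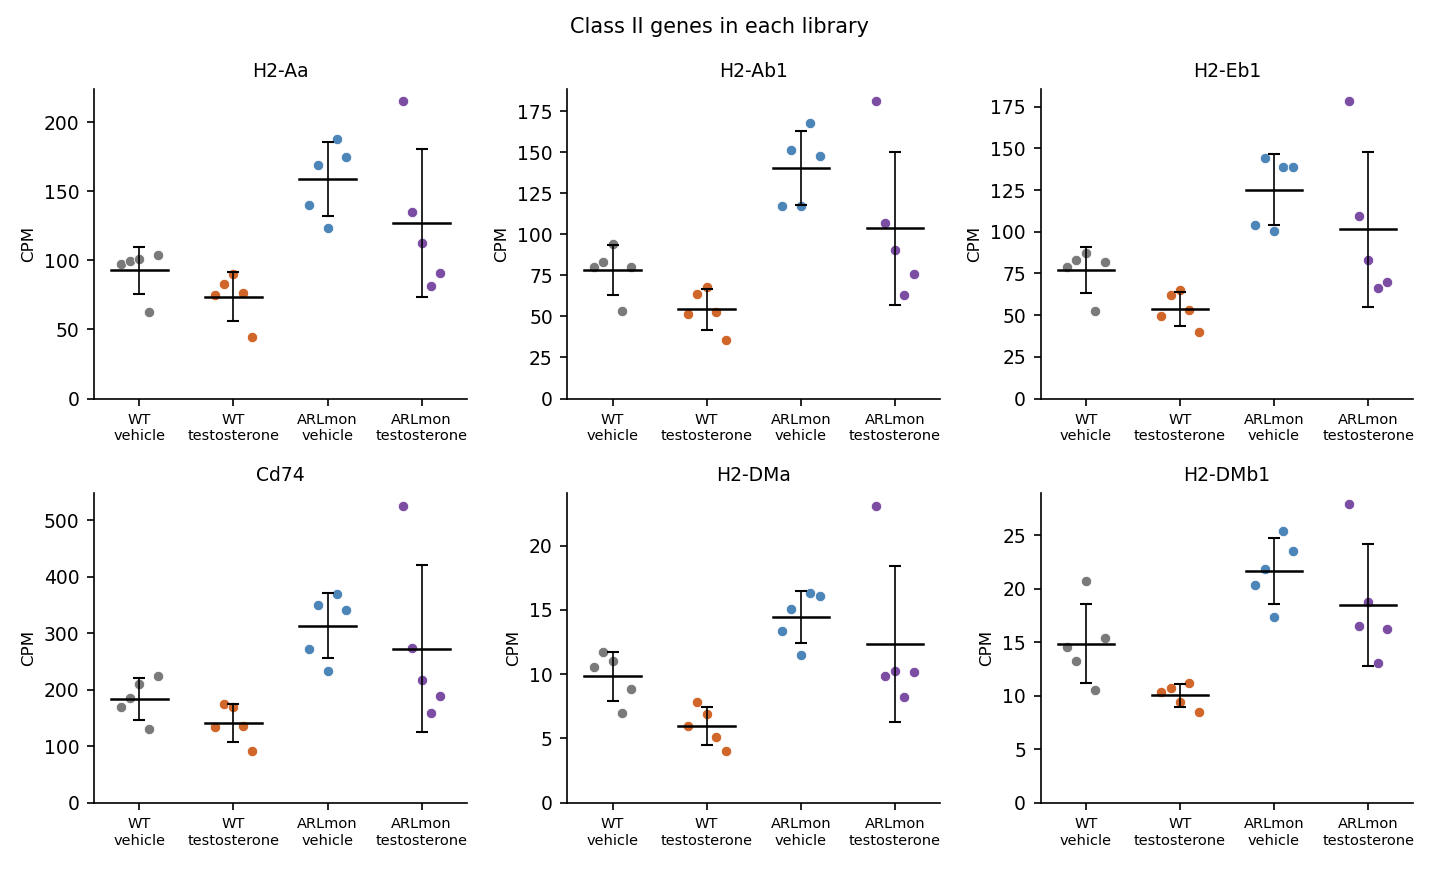
CPM of 6 class II genes in each library (points; 5 per group, mean as a line, SD as bars). In all 6 panels the highest ARLmon testosterone library is GC078612, and for H2-Aa, H2-Ab1, H2-Eb1 and Cd74 the 5 ARLmon vehicle libraries lie above the 5 wild type vehicle libraries.

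Testosterone itself left the class II genes uncalled in both genotypes, with negative estimates in each. In wild type the log2 differences of testosterone minus vehicle were -0.38 for Cd74, -0.33 for H2-Aa, -0.53 for H2-Ab1 and -0.51 for H2-Eb1, with edgeR adjusted p from 0.127 to 0.357. In ARLmon they were -0.20, -0.33, -0.44 and -0.30 in the same order. The difference between these effects (ARLmon minus wild type) was 0.00 for H2-Aa, with a 95% interval of -0.65 to 0.66 on the log2 scale, and 0.18 (-0.56 to 0.93) for Cd74. An unequal effect of testosterone on these genes was therefore not detectable at this spread.

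The rest of the class II pathway was read from 12 further genes, of which 11 were tested. Under testosterone 4 of the 11 were higher in ARLmon and none lower, 2 of them without GC078612 and 3 without both it and GC078615. The share of all genes called higher there was 15.6%. H2-DMa and H2-DMb1, the chains of H2-M, which loads peptide onto class II, had log2 differences of 1.04 ± 0.25 and 0.87 ± 0.19 (edgeR adjusted p = 0.00293 and 0.00144), and neither had overlapping ranges. Without GC078612 these were 0.70 and 0.68 (0.00694 and 0.00468). H2-Ob, a chain of the H2-M inhibitor, was higher by 0.83 ± 0.30 (0.0404) and Rfxank, a subunit of RFX, by 0.32 ± 0.11 (0.0344), and both calls were lost without GC078612 (0.142 and 0.0617). Under vehicle none of the 11 was called, the smallest adjusted p being that of H2-DMb1 (0.55 ± 0.18, 0.092), and 6 had an unadjusted p below 0.05. In wild type, testosterone lowered H2-DMa by 0.73 ± 0.25 (0.0489) and H2-DMb1 by 0.56 ± 0.19 (0.0481). Ciita, chosen here after its values were seen, averaged 2.87 ± 1.22, 2.63 ± 0.48, 4.27 ± 1.62 and 3.72 ± 1.18 CPM in the 4 groups and was not called in any comparison.

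Class I presentation, which nearly all nucleated cells use, was read from a list of its own. Of 12 tested genes, 6 were higher in ARLmon under vehicle and 8 under testosterone, with none lower, and testosterone lowered 3 in wild type. The shares over all genes were 1.99% and 15.6% higher in ARLmon, and 6.36% lowered by testosterone in wild type. The 8 were 5 without GC078612 and 8 without both it and GC078615. B2m, the light chain of class I, fell from 253 to 181 CPM with testosterone in wild type (log2 -0.48 ± 0.14, edgeR adjusted p = 0.019). It was higher in ARLmon by 0.55 ± 0.14 under vehicle (0.023) and by 0.82 ± 0.14 under testosterone (0.000104). The immunoproteasome subunit genes Psmb8 and Psmb9 were higher in ARLmon under vehicle by 1.00 ± 0.22 and 0.95 ± 0.22 (0.0078 and 0.0124), and the peptide transporter gene Tap1 by 0.80 ± 0.21 (0.0276). Under vehicle the ranges of B2m, Psmb8 and Tap1 overlapped between genotypes, and those of Psmb9 did not. GC078605 had the lowest summed class I level of wild type vehicle, at 823 CPM (others 979 to 1133). How far the vehicle calls of this list rest on single libraries was not examined. Tap2, its partner chain, and the immunoproteasome subunit gene Psmb10 fell with testosterone in wild type by 0.60 ± 0.15 and 0.76 ± 0.24 (0.00907 and 0.033). Under testosterone both were higher in ARLmon, by 0.64 ± 0.15 and 0.81 ± 0.24 (0.00322 and 0.0127).

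Among the 21 macrophage and myeloid genes, 11 were higher and 1 lower in ARLmon under testosterone, against 1 higher under vehicle. That is 52.4% higher under testosterone and 4.76% under vehicle, where 15.6% and 1.99% of all genes were called higher. Under testosterone 15.5% of all genes were called lower and 31.1% either way. Adgre1, the F4/80 antigen of mature macrophages (chromosome 17, 57358691-57483527, plus strand), had the smallest p. It was at 4.99, 4.54, 3.83, 6.01 and 5.12 CPM in wild type vehicle, 4.76, 4.96, 3.98, 2.88 and 3.57 in wild type testosterone, 6.07, 4.96, 5.71, 7.98 and 5.22 in ARLmon vehicle, and 9.70, 8.2, 6.73, 6.23 and 13.1 in ARLmon testosterone. Every ARLmon testosterone library was above every wild type library. The log2 difference under testosterone was 1.14 ± 0.21 (edgeR adjusted p = 0.000309), and it was called in all 30 alternatives. Under vehicle it was 0.29 ± 0.20 (0.484). The difference of the testosterone effects was 0.85 ± 0.29 (0.11), the smallest adjusted p of any member, and passed the threshold when only library size scaled the counts and on the deposited log2 values.

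Aif1 (IBA1), an actin-bundling protein of macrophages, was called in both genotype comparisons. Its levels were 2.73, 1.51, 3.95, 1.37 and 1.59 CPM in wild type vehicle, 1.77, 1.09, 1.99, 1.33 and 1.09 in wild type testosterone, 4.28, 6.25, 3.36, 6.03 and 5.72 in ARLmon vehicle, and 4.98, 3.22, 2.77, 2.13 and 5.69 in ARLmon testosterone. Under testosterone the ranges were apart, and under vehicle 1 wild type library lay above the lowest ARLmon library. The log2 differences were 1.18 ± 0.30 under vehicle (edgeR adjusted p = 0.025) and 1.38 ± 0.35 under testosterone (0.00445). The first was lost when only the vehicle libraries were fitted (0.0787) and on the single omission of GC078605 (0.0931), GC078603 (0.0804), GC078621 (0.064), GC078620 (0.0584), GC078618 (0.0536) or GC078606 (0.0517).

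Ptprc (CD45), carried by all leukocytes, gives the broadest view of immune cells. It was at 19, 15.9, 9.21, 11.7 and 10.8 CPM in wild type vehicle, 12.8, 14.5, 13.3, 12.4 and 9.51 in wild type testosterone, 15.1, 8.64, 15.5, 23.8 and 16.5 in ARLmon vehicle, and 20.9, 21.8, 20.9, 16.6 and 16.7 in ARLmon testosterone. Its testosterone groups did not overlap, while its vehicle groups did so widely. The log2 difference was 0.64 ± 0.22 under testosterone (edgeR adjusted p = 0.0296) and 0.26 ± 0.21 under vehicle (0.558). The first was lost on the single omission of GC078611 (0.0826), GC078613 (0.0678), GC078614 (0.0595), GC078610 (0.0575), GC078612 (0.0564) or GC078607 (0.0502).

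Adaptor and cytoskeleton genes of leukocytes followed. Fcer1g, the signalling chain of Fc receptors, was at 6.89, 5.69, 8.56, 5.69 and 10.1 CPM in wild type vehicle, 6.39, 3.99, 4.91, 4.43 and 3.07 in wild type testosterone, 7.24, 10.1, 7.12, 9.07 and 9.95 in ARLmon vehicle, and 13.1, 9.26, 7.56, 4.31 and 12.1 in ARLmon testosterone. The lowest ARLmon testosterone library, GC078615, lay within the wild type range. The log2 difference was 1.03 ± 0.26 under testosterone (edgeR adjusted p = 0.00482). Coro1a, an actin-binding coronin of leukocytes, was at 11.9, 12.2, 16.7, 9.85 and 18.7 CPM in wild type vehicle, 7.75, 10.4, 9.15, 7.16 and 7.13 in wild type testosterone, 12.7, 17.9, 13, 24.0 and 21.9 in ARLmon vehicle, and 26.7, 18.6, 14.1, 8.26 and 15.7 in ARLmon testosterone. In wild type, 1 vehicle library (GC078605) lay within the testosterone range. It differed by 1.00 ± 0.26 between genotypes under testosterone (0.00588), and testosterone in wild type gave -0.73 ± 0.26 (0.0617), a fall that was called in 8 of 30 alternatives. Coro1a shares 26 exon bases with Bola2 on the opposite strand.

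Tyrobp (DAP12), another signalling adaptor, was at 7.61, 6.27, 9.21, 5.87 and 9.56 CPM in wild type vehicle, 5.30, 7.86, 5.97, 6.35 and 2.48 in wild type testosterone, 7.63, 9.67, 8.27, 9.01 and 10.8 in ARLmon vehicle, and 12, 9.96, 7.78, 4.76 and 9.80 in ARLmon testosterone. The ranges overlapped, and its difference of 0.66 ± 0.25 under testosterone stood at the threshold (edgeR adjusted p = 0.04996) and was lost in 20 of 30 alternatives, at up to 0.134 (0.133 without GC078612). Laptm5, a lysosomal membrane protein of leukocytes, was at 18.6, 18, 22.9, 16.7 and 25.5 CPM in wild type vehicle, 16.4, 19.7, 15.1, 15.5 and 13.8 in wild type testosterone, 22.8, 27.5, 23.3, 25.6 and 28.9 in ARLmon vehicle, and 35.1, 22.7, 22.5, 15.4 and 26.0 in ARLmon testosterone. Under testosterone 4 of 5 ARLmon libraries were above all of wild type, and the difference of 0.59 ± 0.17 (0.0109) was kept in all 30 alternatives.

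Phagocyte genes differed less evenly. Cd68, a lysosomal glycoprotein of macrophages, was at 4.73, 4.12, 6.24, 2.87 and 5.81 CPM in wild type vehicle, 3.13, 6.05, 3.45, 2.36 and 2.97 in wild type testosterone, 4.83, 6.84, 5.58, 5.74 and 5.88 in ARLmon vehicle, and 7.92, 5.33, 5.84, 4.36 and 5.62 in ARLmon testosterone. GC078608 was the 1 wild type testosterone library within the ARLmon range. The difference under testosterone was 0.70 ± 0.24 (edgeR adjusted p = 0.0311), lost on the single omission of GC078610 (0.1), GC078612 (0.0886), GC078611 (0.076), GC078607 (0.0668), GC078609 (0.0559) or GC078614 (0.0521). Cd14, the co-receptor for bacterial lipopolysaccharide, was at 6.07, 5.85, 4.97, 7.03 and 11.7 CPM in wild type vehicle, 3.26, 3.75, 3.58, 3.54 and 6.73 in wild type testosterone, 6.46, 8.04, 7.26, 7.23 and 7.09 in ARLmon vehicle, and 17.8, 6.68, 5.84, 5.07 and 7.06 in ARLmon testosterone. Its difference of 1.00 ± 0.31 under testosterone (0.0189) fell to 0.55 without GC078612 (0.0889) and was also lost without GC078610 (0.051).

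The C1q genes encode the 3 chains of the molecule that starts the classical complement pathway and are made by tissue macrophages. C1qa was at 17, 17.2, 26.5, 21.6 and 40.8 CPM in wild type vehicle, 16.4, 21, 20.02, 14.3 and 14.4 in wild type testosterone, 25.1, 30.5, 22.6, 29.8 and 36.0 in ARLmon vehicle, and 33.5, 27.1, 24.2, 14.1 and 28.0 in ARLmon testosterone. C1qb was at 16.6, 18.1, 33.6, 22.4 and 41.8, then 14.9, 22.5, 17.8, 14.4 and 16.2, then 26.2, 31.5, 21.2, 30.2 and 35.4, and last 39.8, 28.5, 21.7, 16.7 and 28.5 CPM. C1qc was at 12.4, 13, 18.3, 13 and 19.7, then 8.02, 16, 15.4, 11.2 and 10.1, then 16.6, 18.7, 15.6, 18.9 and 26.3, and last 25.6, 17.9, 15.5, 10.8 and 17.5 CPM. In all 3 the ARLmon testosterone library GC078615 was within or below the wild type testosterone range. Under testosterone their differences between genotypes were 0.56 ± 0.23, 0.65 ± 0.25 and 0.52 ± 0.22, of which that of C1qb was called (edgeR adjusted p = 0.0722, 0.0478 and 0.0761). The call of C1qb was lost in 16 of 30 alternatives, at up to 0.155 (without GC078612).

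Cxcl16, a chemokine that is also a scavenger receptor, was at 52.6, 52.9, 59.8, 49.0 and 61.9 CPM in wild type vehicle, 45.0, 42.2, 49.5, 40.2 and 37.2 in wild type testosterone, 57.3, 59.1, 55.4, 62.6 and 60.3 in ARLmon vehicle, and 94.3, 57.9, 57.8, 39.8 and 58.5 in ARLmon testosterone. All ARLmon testosterone libraries but GC078615 were above those of wild type. The difference under testosterone was 0.53 ± 0.15 (edgeR adjusted p = 0.0111), kept in all 30 alternatives, with 0.32 without GC078612. Cxcl16 shares 552 exon bases with Zmynd15 on the opposite strand, which also differed (0.58 ± 0.17, 0.0135). Whether the counting used strand is not given in the sources used here, so reads of the 2 genes may not be told apart.

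Cx3cr1, the fractalkine receptor of resident macrophages, was at 6.07, 3.97, 4.65, 4.98 and 6.94 CPM in wild type vehicle, 4.35, 4.23, 5.70, 4.72 and 4.06 in wild type testosterone, 4.67, 4.96, 6.05, 6.77 and 7.48 in ARLmon vehicle, and 10.2, 7.26, 5.16, 5.12 and 5.10 in ARLmon testosterone. Lyz2 was at 39.7, 36.7, 46.0, 47.6 and 31.8, then 36.8, 59.6, 43.2, 34.4 and 30.2, then 40.2, 38.2, 47.6, 53.3 and 41.4, and last 71.9, 56.3, 43.2, 37.6 and 60.4 CPM. The groups overlapped for both genes, and neither was called in any comparison. Under testosterone their differences were 0.50 ± 0.21 and 0.40 ± 0.18 (edgeR adjusted p = 0.0747 and 0.0985). Lyz1, the near-identical neighbour of Lyz2 with which reads could be shared, was at 0.24 to 0.81 CPM as a group mean and was itself higher in ARLmon under testosterone (1.44 ± 0.48, 0.0264). The other 5 macrophage members were not called either. Under testosterone the protease gene Ctss stood at 0.56 ± 0.22 (0.0543), and Ccr2, Itgax, Itgam and the mannose receptor gene Mrc1 at 0.17 to 0.35.

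Csf1r, the receptor for Csf1 and Il34 on which tissue macrophages depend, was the member called in the other direction. Its levels were 57.0, 59.4, 54.0, 70.9 and 43.1 CPM in wild type vehicle, 71.6, 95.9, 78.1, 91.4 and 72.4 in wild type testosterone, 57.2, 55.7, 59.3, 62.7 and 52.4 in ARLmon vehicle, and 77.4, 65.4, 65.9, 65.8 and 38.9 in ARLmon testosterone. All wild type testosterone libraries were above all wild type vehicle libraries, while 1 ARLmon testosterone library reached into their range. In wild type, testosterone raised Csf1r by a log2 difference of 0.52 ± 0.15 (edgeR adjusted p = 0.0175), with 0.13 ± 0.15 in ARLmon (0.804). It was lower in ARLmon than in wild type under testosterone by -0.39 ± 0.15 (0.0493) and at 0.01 ± 0.15 under vehicle (0.982). The difference of the testosterone effects was -0.40 ± 0.21 (0.351), so the effects were not shown to differ. The rise in wild type was lost when only library size scaled the counts (0.0848), on the deposited log2 values (0.109) and without GC078606 (0.0521) or GC078610 (0.0535). The difference between genotypes was lost in 18 of 30 alternatives, at up to 0.487.

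Csf1r shares 873 exon bases with Hmgxb3 on the opposite strand, and Hmgxb3 moved with it. Hmgxb3 was at 35.9, 34.5, 31.3, 38 and 34.4 CPM in wild type vehicle, 43.1, 46.1, 42.0, 44.9 and 46.3 in wild type testosterone, 33.8, 33.5, 32.3, 32.0 and 31.3 in ARLmon vehicle, and 33.1, 36.6, 39.95, 34.7 and 36.5 in ARLmon testosterone. It rose with testosterone in wild type by 0.35 ± 0.07 (edgeR adjusted p = 0.00134) and was lower in ARLmon under testosterone by -0.30 ± 0.07 (0.00313). Its part in the Csf1r values was not tested, since the strand setting of the counting is not given in the sources used here.

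The ligand genes of Csf1r differed in direction. Il34 was at 14.2, 10.8, 16.3, 14.1 and 30.2 CPM in wild type vehicle, 37.5, 41.6, 43.8, 42.2 and 32.0 in wild type testosterone, 6.78, 8.98, 6.99, 7.12 and 6.05 in ARLmon vehicle, and 15.6, 7.50, 6.43, 6.94 and 6.99 in ARLmon testosterone. All wild type testosterone libraries were above every other library. Testosterone raised Il34 by 1.23 ± 0.24 in wild type (edgeR adjusted p = 0.000892). It was lower in ARLmon by -1.23 ± 0.25 under vehicle (0.00423) and by -2.20 ± 0.25 under testosterone (7.14e-07). The difference of the testosterone effects on Il34 was -0.96 ± 0.35 (0.131), so the effects were not shown to differ. Csf1, chosen here after its values were seen, was higher in ARLmon under testosterone by 0.47 ± 0.18 (0.0463), lost without GC078612 (0.0797).

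**Figure D4:**
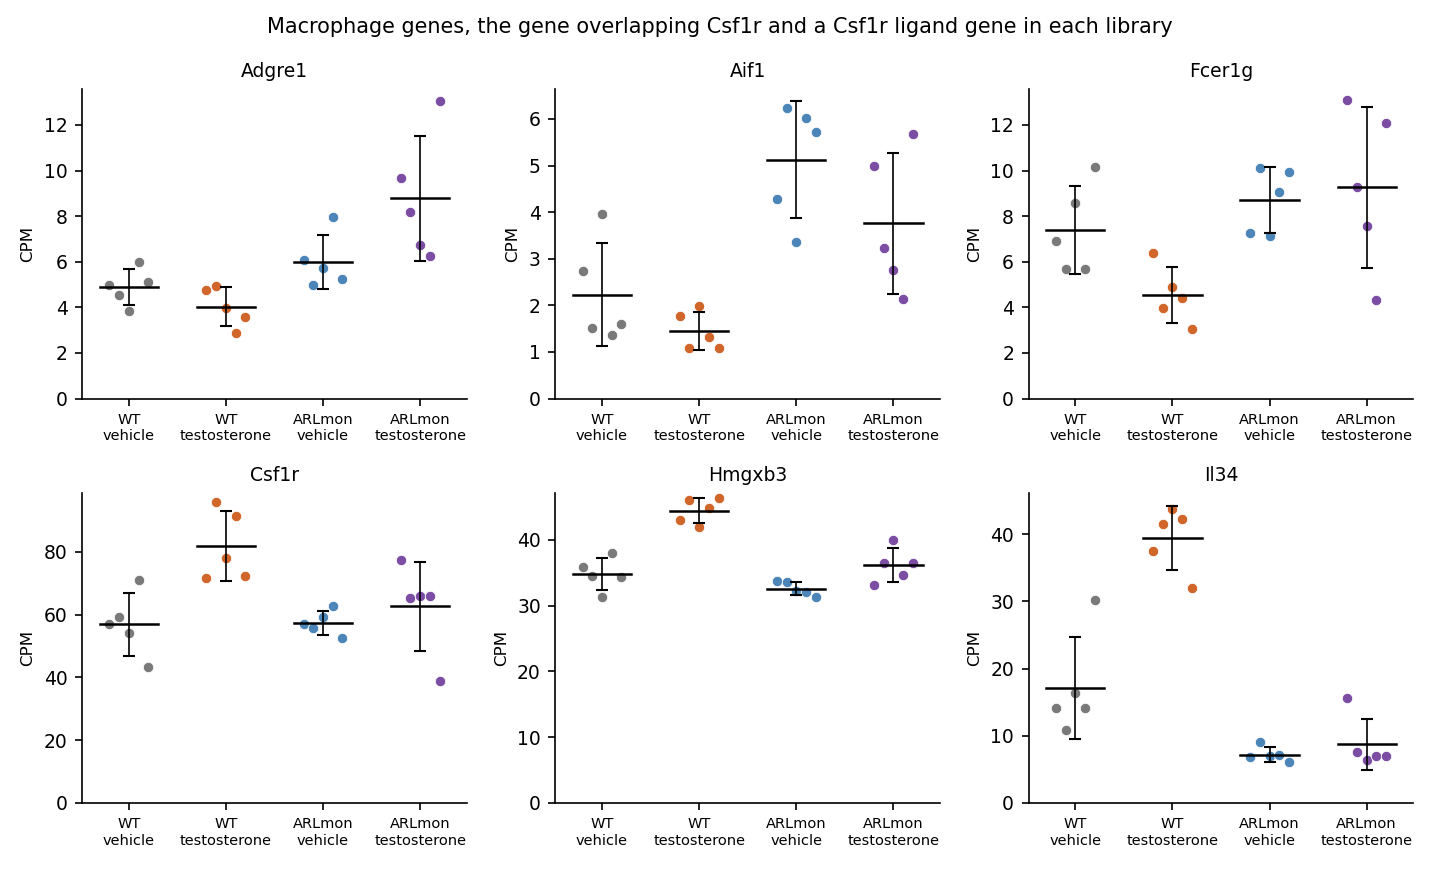
CPM of 3 macrophage genes, of Csf1r, of Hmgxb3 and of Il34 in each library (points; 5 per group, mean as a line, SD as bars). Adgre1, Aif1 and Fcer1g have their lowest group mean in wild type testosterone (4.03, 1.45 and 4.56 CPM), where Csf1r, Hmgxb3 and Il34 have their highest.

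**Figure D5:**
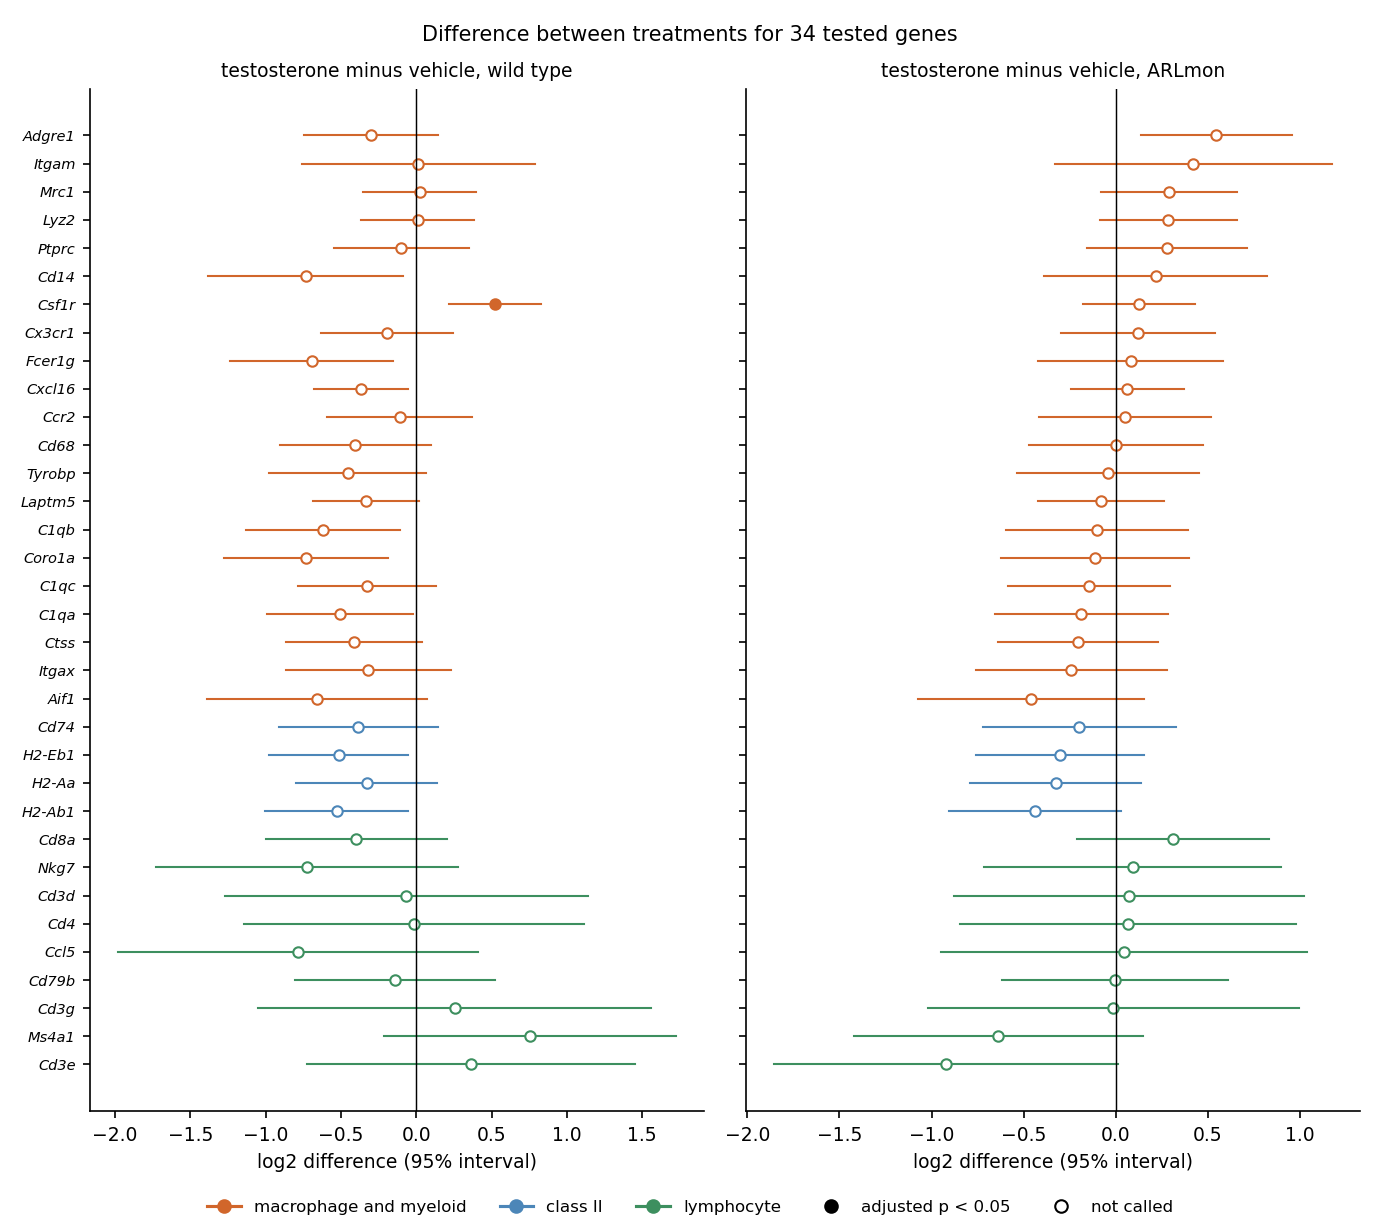
Log2 difference of testosterone minus vehicle, with its 95% interval, for the 34 members tested, in wild type (left) and ARLmon (right), grouped as in the plot of genotype differences. Csf1r in wild type is the only filled point, at an adjusted p of 0.0175, and 27 of 34 wild type estimates lie below 0.

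Other macrophage genes gave a lower share of calls between genotypes under testosterone, where 11 of the 21 macrophage members were higher in ARLmon. Of 28 tested, 11 were higher in ARLmon under testosterone and none lower, none was called under vehicle, and testosterone lowered 3 in wild type. Over all genes, 15.6% were higher in ARLmon under testosterone, 4.37% were called under vehicle, and testosterone lowered 6.36% in wild type. The 11 were 6 without GC078612 and 9 without both it and GC078615. Sirpa, the inhibitory receptor for CD47, which is not confined to macrophages, fell from 104 to 51.3 CPM in wild type (log2 -1.02 ± 0.09, edgeR adjusted p = 6.67e-08). Irf8, a transcription factor of monocytes and dendritic cells, fell by 0.96 ± 0.18 (0.000758), and the Fc receptor gene Fcgr3 by 0.79 ± 0.22 (0.0184). Under testosterone Sirpa, Irf8 and Ms4a7 were higher in ARLmon by 1.11, 0.96 and 0.98. The difference of the testosterone effects was called for Sirpa alone of the 28 (1.01 ± 0.13, 3.18e-05). The hexamer GAGGAA, the core bound by the myeloid factor PU.1, was in 28.3% of all promoters on either strand, in those of 9 of the 15 macrophage members that had one, and in those of 4 of the 6 lymphocyte members that had one.

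Lymphocyte genes were low, so that single reads weigh on their values. Of 9 tested, 3 were higher in ARLmon under testosterone and 1 under vehicle. That is 33.3% and 11.1%, where 15.6% and 1.99% of all genes were called higher. Cd8a, the co-receptor of cytotoxic T cells, was at 1.23, 2.14, 2.04, 1.05 and 1.71 CPM in wild type vehicle, 1.49, 1.09, 1.86, 0.96 and 0.891 in wild type testosterone, 1.79, 2.31, 1.61, 2.81 and 2.42 in ARLmon vehicle, and 2.94, 3.98, 2.69, 1.77 and 2.29 in ARLmon testosterone. Only GC078615 of ARLmon testosterone lay within the wild type testosterone range. The difference under testosterone was 1.15 ± 0.28 (edgeR adjusted p = 0.00388), kept in all 30 alternatives, and under vehicle 0.44 ± 0.26 (0.387).

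The genes of cytotoxic lymphocytes were the others called under testosterone. Nkg7, a granule protein, was at 0.463, 0.522, 1.71, 0.422 and 1.14 CPM in wild type vehicle, 0.679, 0.605, 0.265, 0.295 and 0.693 in wild type testosterone, 1.09, 1.28, 0.941, 1.61 and 1.15 in ARLmon vehicle, and 2.22, 1.70, 1.12, 0.558 and 1.05 in ARLmon testosterone. Ccl5, a chemokine of T and NK cells, was at 1.49, 1.78, 3.5, 0.527 and 1.59, then 0.815, 0.363, 1.33, 1.40 and 1.09, then 1.87, 3.08, 2.42, 4.71 and 3.02, and last 6.76, 4.80, 2.39, 0.76 and 1.31 CPM. GC078615 was the lowest ARLmon testosterone library for both and lay within the wild type range. The differences under testosterone were 1.37 ± 0.47 and 1.61 ± 0.56 (edgeR adjusted p = 0.0315 and 0.0346). Both calls were lost without GC078612 (0.0853 and 0.122), and also without GC078613 (0.0736 and 0.0915). That of Nkg7 was further lost without GC078609 or GC078610, and that of Ccl5 without GC078607, GC078608 or GC078611.

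Cd4, the co-receptor of helper T cells, was at 1.13, 1.15, 0.693, 0.474 and 0.342 CPM in wild type vehicle, 0.272, 0.967, 1.33, 1.11 and 0.099 in wild type testosterone, 1.32, 1.37, 0.605, 3.44 and 1.65 in ARLmon vehicle, and 2.94, 1.76, 2.17, 1.12 and 1.11 in ARLmon testosterone. Cd3e, a chain of the T cell receptor complex, was at 0.36, 0.261, 0.53, 0.369 and 0.342, then 0.272, 0.363, 0.928, 0.59 and 0.297, then 0.623, 0.428, 1.08, 1.66 and 0.66, and last 0.889, 0.82, 0.374, 0.304 and 0.0653 CPM. Neither was called. Cd4 differed between genotypes by 1.14 ± 0.46 under vehicle and 1.22 ± 0.51 under testosterone (edgeR adjusted p = 0.187 and 0.0757), and Cd3e by 1.25 ± 0.44 and -0.04 ± 0.53 (0.124 and 0.966). Cd3e rests on 23 to 70 reads per group. Cd3d and Cd3g, the other CD3 chains, stood at 0.85 and 1.28 under vehicle and at 0.99 and 1.01 under testosterone, uncalled.

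Ms4a1 (chromosome 19, 11249675-11266241, minus strand), the CD20 antigen of B cells, was at 0.36, 0.313, 0.204, 0.184 and 0.114 CPM in wild type vehicle, 0.815, 0.242, 0.53, 0.443 and 0.099 in wild type testosterone, 0.779, 0.684, 1.01, 0.402 and 0.715 in ARLmon vehicle, and 0.712, 0.41, 0.524, 0.203 and 0.523 in ARLmon testosterone. Under vehicle every ARLmon library was above every wild type library, on 53 and 26 reads in all. The log2 difference was 1.54 ± 0.39 (edgeR adjusted p = 0.0251), lost on the single omission of GC078605 (0.0977), GC078619 (0.0791), GC078621 (0.0559) or GC078617 (0.0533), with no filter on low counts (0.0517) and without both GC078604 and GC078618 (0.057). Under testosterone it was 0.15 ± 0.45 (0.85). Cd79b, a chain of the B cell receptor, was not called under vehicle (0.31 ± 0.29, 0.626). Cd79a, untested, was at 0.463, 0.261, 0.367, 0.237 and 0.797 CPM in wild type vehicle, 0.544, 0.484, 0.53, 0.148 and 0.198 in wild type testosterone, 0.701, 0.513, 0.47, 0.803 and 0.495 in ARLmon vehicle, and 0.267, 0.527, 0.748, 0.304 and 0.327 in ARLmon testosterone, with all groups overlapping.

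Of 14 further T and NK cell genes tested, all 14 lay above 0 in both genotype comparisons, and 1 was called, Trbc2, a constant region of the T cell receptor (1.42 ± 0.52 under testosterone, edgeR adjusted p = 0.0441, lost without GC078612 at 0.128). Trbc2 was low, on means of 0.584 CPM in wild type testosterone and 1.525 in ARLmon testosterone. Of 14 further B and plasma cell genes, 1 was higher in ARLmon under vehicle and 2 under testosterone. The shares of all genes called higher were 1.99% and 15.6%. Fcmr, the IgM receptor of B cells, was called in both, at 1.88 ± 0.39 (0.00536) and 2.36 ± 0.51 (0.00135), on means of 0.33 and 1.27 CPM under vehicle. The B and plasma cell list as a whole was mixed, with 9 genes above 0 and 5 below in each genotype comparison. Its median log2 difference was 0.12 under vehicle and 0.32 under testosterone. Of 9 tested dendritic cell genes, 1 was higher in ARLmon under vehicle and 2 under testosterone, against the same shares of all genes. Xcr1, which marks the cross-presenting subset, was higher under vehicle by 1.15 ± 0.33 (0.0471) and under testosterone by 1.60 ± 0.39 (0.00346). Its means were low, at 0.79 and 1.75 CPM under vehicle, where the ranges overlapped, and 0.53 and 1.63 under testosterone. Batf3, a transcription factor of that subset, fell with testosterone in wild type by 1.27 ± 0.32 (0.00887). Under testosterone it was higher in ARLmon by 1.06 ± 0.33 (0.019), on means of 0.78 and 1.67 CPM.

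Of 19 tested genes that attract or hold leukocytes, 6 were higher and 1 lower in ARLmon under testosterone. Among all genes tested, 15.6% were called higher in that comparison, 15.5% lower and 31.1% either way. The adhesion molecule gene Vcam1 was higher by 1.59 ± 0.47 (edgeR adjusted p = 0.0127), the monocyte chemokine gene Ccl2 by 1.65 ± 0.51 (0.0172) and Cx3cl1, the ligand of Cx3cr1, by 0.38 ± 0.11 (0.0139). These calls rested in part on GC078612: without it 2 of the 7 were kept, Il34 and Cx3cl1, with Vcam1 at 0.54 (0.0908) and Ccl2 at 1.04 (0.0663). Without both GC078612 and GC078615, 4 of the 7 were kept. In wild type, testosterone lowered Cx3cl1 by 0.40 ± 0.11 (0.0188). Among 12 complement genes, 6 were higher and 2 lower in ARLmon under testosterone, C2 by 1.37 ± 0.21 (4.69e-05) and C1ra by 0.63 ± 0.12 (0.000577), with Cd55, which protects host cells from complement, at -1.08 ± 0.13 (1.08e-06). The 8 complement calls were 7 without GC078612 and 6 without both it and GC078615. Testosterone in wild type raised Cd55 by 1.00 ± 0.12 (5.26e-06) and lowered C2 by 0.98 ± 0.21 (0.00261). The effects of testosterone on Cd55 differed between genotypes by -0.88 ± 0.18 (0.00399).

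Over all members, the testosterone effects were not shown to differ between genotypes. By edgeR's adjusted p, 0 of 34 members were called in that test, where 4.77% of all genes were (1.42% positive, 3.34% negative), and DESeq2 and limma-voom called 0 as well. At an unadjusted p below 0.05 there were 4: Adgre1, Cd14 and Fcer1g with positive values and Ms4a1 with a negative one. For 30 of 34 the estimate was above 0, with a median of 0.26 against 0.02 over all genes.

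Markers of tissue that can come along with a kidney were read in the same libraries. The summed level of lymph node and fat genes was 113, 75.7, 155, 61.5 and 204 CPM in wild type vehicle and 104, 169.7, 297, 185 and 466 in ARLmon vehicle. Under testosterone it was 93.4, 148, 71.1, 52.1 and 114 CPM in wild type and 125, 188, 236, 142 and 191 in ARLmon. The groups overlapped under both treatments, and GC078612, the highest of its group for class II, was the lowest for these genes. Of 5 tested, Adipoq, the fat cell hormone adiponectin, was higher in ARLmon under testosterone (1.01 ± 0.36, edgeR adjusted p = 0.0376), with 1.2 ± 0.35 under vehicle (0.0539). All 5 are fat genes, and they lay above 0 under vehicle with a median of 1.04, 4 of them at an unadjusted p below 0.05. Under testosterone 4 lay above 0, with a median of 0.79 and 2 at an unadjusted p below 0.05. The sum is thus a reading of fat, not of lymph node. Of the lymph node genes on this list, Madcam1, an address molecule of lymph node vessels, had 2 to 8 reads per group. Glycam1 and Clec4g were not found in the joined counts by symbol or older symbol. The part of such tissue in the genotype differences was not tested. Red cell and platelet genes, of which 7 were tested, were not called in any comparison. Of 9 glomerulus and vessel genes, 8 were higher in ARLmon under testosterone and testosterone lowered 4 in wild type. Those shares over all genes were 15.6% and 6.36%. Podxl, a surface protein of podocytes and vessels, was higher by 0.79 ± 0.10 (6.73e-06) and fell in wild type by 0.51 ± 0.10 (0.0016), effects of testosterone that differed between genotypes by 0.52 ± 0.15 (0.0442). Of 7 fibroblast genes, 1 was higher in ARLmon under testosterone (Col1a2, a collagen chain, 0.64 ± 0.17, 0.00678). Of 6 tested monocyte and neutrophil genes, 2 were higher in ARLmon under testosterone, Plac8 (0.64 ± 0.20, 0.0213) and the monocyte antigen gene Ly6c2 (1.41 ± 0.51, 0.0405, on means of 0.35 and 0.95 CPM), both lost without GC078612 (0.0778 and 0.0793).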

How the data were processed

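The deposited data were 4 tables of whole-number counts per gene, each covering a pair of groups, and a table of log2 values for 20550 genes whose normalization is not given in the sources used here. Per the labels, libraries were made with a stranded mRNA kit; per the submitters' processing notes, the authors' tools behind the deposited counts include HISAT2, SAMtools 1.5, HTSeq 2.7.14 and DESeq2, with mm10, and the notes give no role or settings for them. The 4 tables were joined to 24762 genes in 20 libraries, with 12045 values of genes that a table did not list set to 0. All 455975 values that tables shared were equal. Genes were filtered with filterByExpr (15549 kept), scaled by TMM and fitted with edgeR 4.0.16 as 4 group means over 20 libraries (quasi-likelihood test, two-sided, Benjamini-Hochberg over all 15549 genes, R 4.3.3). SE was taken from the log2 difference and F, and intervals cover 95%. On simulated data for the comparison of genotypes under testosterone, with 15549 genes, 41.8%, 79.1% and 95.5% of genes changed 1.5-, 2- and 4-fold were recovered. The changed genes were drawn from those averaging above about 1 CPM, so the rates do not cover Ms4a1, Cd3d, Cd3e, Cd3g and Nkg7. They numbered 67, 67 and 66, far fewer than the 4842 genes called in the data. No library that stood apart was simulated.

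Levels per length use the exon union of GENCODE M21 (GRCm38), and promoters come from RefSeq. The alternatives, 30 in all, were RLE factors, library size alone, no filter and a stricter filter of 1 CPM in 5 libraries, DESeq2 1.42.0, limma-voom (limma 3.58.1), fits of the compared groups only, limma on the deposited log2 values, each library left out in turn, and, chosen after seeing the data, 2 pairs of libraries left out. Genes outside the members that were called between genotypes under testosterone were also recomputed without GC078612, GC078615 or both, chosen after seeing the data. Calls of such genes in the other comparisons were not examined in this way. The members and gene lists were chosen with earlier results of these data known. Members called in any comparison, and others listed to cover each role, are given in every library. Of each other list, up to 4 called genes with the smallest p were named per comparison, and genes outside this rule are marked as chosen after their values were seen. A gene that this rule would name is not reported here.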

Additional observations from a re-analysis of the deposited data

Results flagged for a closer look

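In 11 of 168 groups of 5 libraries examined (8 of 140 for the members), 1 library lay apart from its group by Dixon's test, which by chance marks about 1 group in 20. GC078612 of ARLmon testosterone was the high one for Cd14 (17.8 CPM, the others 5.07 to 7.06), Itgax (6.49, others 2.84 to 3.40), H2-DMa (23.1, others 8.26 to 10.2) and Il34 (15.6, others 6.43 to 7.50). GC078605 of wild type vehicle was the low one for H2-Aa (62.3 CPM, others 97.6 to 104) and H2-Eb1 (52.7, others 79.0 to 87.4). GC078606 of that group was high for Ctss (29.6 CPM, others 14.6 to 18.6) and Il34 (30.2, others 10.8 to 16.3). In wild type testosterone, GC078611 was high for Cd14 (6.73 CPM, others 3.26 to 3.75) and GC078607 for Cd3g (1.22, others 0.297 to 0.530). In ARLmon vehicle, GC078618 was high for Cd79b (3.08 CPM, others 1.55 to 1.84). Among the members and the other listed genes tested, the effect of testosterone differed between the genotypes by edgeR's interaction test for 7 genes, none of them a member. On the log2 scale, ARLmon minus wild type, these were Sirpa (1.01), Acta2 (0.84), Podxl (0.52), Cd55 (-0.88), Slc22a6 (-0.92) and the androgen-responsive kidney genes Kap (-1.76) and Odc1 (-2.97).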

How the results depend on the processing

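No paired analysis was possible because the columns of the count tables carry library codes and no replicate number, so the planned block could not be run. Of 23 calls of a member in a comparison, none changed direction in any of the 30 alternatives, and 10 were kept in all of them (Adgre1, Fcer1g, Aif1, Laptm5, Coro1a, Cxcl16, Cd74, H2-Ab1, H2-Eb1 and Cd8a between genotypes under testosterone). For testosterone in wild type the members called went from 1 to 6 with library size alone, 2 with DESeq2, 4 with the compared groups only, 7 on the deposited log2 values, 7 without both GC078612 and GC078615, and 0 to 6 with single libraries left out. For genotypes under vehicle they went from 3 to 5 with DESeq2, 6 without both GC078612 and GC078615, and 0 to 6 with single libraries left out. For genotypes under testosterone they were 19, and 11 to 24 with single libraries left out. The difference of the testosterone effects went from 0 to 1 (Adgre1) with library size alone and on the log2 values, and stayed at 0 with any single library left out. Testosterone in ARLmon gave 0 members in each alternative. Of 59 calls among the other lists between genotypes under testosterone, 40 were kept without GC078612, 59 without GC078615 and 50 without both. Over all genes, the count under vehicle fell from 680 to 330 with the compared groups only, and ranged from 413 to 1211 with single libraries left out. The interaction split into 221 positive and 520 negative with TMM, and 715 and 340 with library size alone. The genotype split under vehicle was 310 higher and 370 lower with TMM, and 550 and 275 with library size alone. The cause of these shifts was not tested. Depth limits Ms4a1, Cd79a and the CD3 genes, at 132 to 259 reads each over 20 libraries.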
